A study of Caenorhabditis elegans with 12 samples.

Results

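In the nematode Caenorhabditis elegans, 6 genes, drh-2, rpa-4, try-12, C02G6.1, F56D5.4 and T02H6.3, gave far higher array signals in the worms of 1 replicate set than in those of the others. They were chosen by the size of that difference in signal, among 17118 genes with a probe set of their own, so the set difference is given as a description and carries no test. All probe sets whose platform annotation names 1 of the 6 genes were taken, which gave 7 of the 22625 probe sets on the array. F56D5.4 has 2 probe sets and each other gene has 1, and no probe set of several genes names a member.

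Total RNA from worm lysates was hybridised as biotin-labelled cRNA to 12 single-colour arrays, 6 from each of 2 strains. The HLH strain carried pHS::hlh-8 and pHS::hlh-2, together with the reporter egl-15::gfp and pRF4, a transformation marker. The marker strain had egl-15::gfp and pRF4 alone, so these were common to all groups. The design text names heat-shocked and unheated worms of both strains in 3 biological replicates. Each title pairs 1 of 3 set numbers with a code. The HLH strain has codes 1 and 2, the marker strain 3 and 4, and each code 3 arrays. The labels do not say which code was heat shocked, what marks a set, or how old the worms were, so values are given by code and set. One array of code 2 is titled 2_2 (2), set 3 has no array of code 2, and the set of the array titled 2_2 (2) is uncertain. It is kept out of the set descriptions and shown on its own.

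As background, Dicer-related helicases act with small RNAs, and drh-1, the neighbour of drh-2, is known for its part in antiviral RNA interference. Replication protein A, for whose family rpa-4 is named, binds single-stranded DNA during replication and repair. The gene try-12 is named for the trypsin-like serine proteases, which cut other proteins. In the gene table of assembly WBcel235, drh-2, C02G6.1 and F56D5.4 are annotated as pseudogenes, that is 3 of the 6, and the other 3 as protein coding. Of the 11754 tested probe sets of 1 gene, 125 or 1.06% represent an annotated pseudogene. The 121 of these that are not members had a median set 2 difference of -0.03 on the log2 scale, against 0.04 over all tested probe sets. In 24 of them (19.8%) the set 2 arrays lay above all arrays of sets 1 and 3, against 12.4% of all tested probe sets, and no test was made.

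The values are MAS5 signals, a linear intensity in arbitrary units scaled by the authors to the same trimmed mean on every array. The median signal of an array was 200.8 to 208.0 in set 2 and 180.3 to 200.3 in sets 1 and 3, and the upper quartile 613.5 to 626.8 against 538.4 to 579.6. All 7 member probe sets passed the filter, a signal above the array's median on at least 3 arrays. Those of try-12, C02G6.1 and T02H6.3 were above it on the 4 set 2 arrays and on no other, so these 3 passed only through the set for which they were chosen. That of rpa-4 was above it on the 4 set 2 arrays and 1 other, so it too needed set 2 to pass. Signals under 16.7 were raised to 16.7 before logarithms were taken.

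The gene drh-2 is named for the Dicer-related helicases and annotated as a pseudogene. It was measured by a probe set of suffix _s_at, whose probes may be shared by several transcripts. Its signal at codes 1, 2, 3 and 4 was 574.6, 878.7, 482.1 and 593.0 in set 1, and 1993.2, 4414.6, 2514.6 and 3313.3 in set 2. In set 3 it was 354.3, 156.7 and 250.7 at codes 1, 3 and 4. The lowest set 2 array was thus 2.27 times the highest array of sets 1 and 3, with no overlap. Set 2 lay 2.69 ± 0.53 (SD over 4 codes) higher on the log2 scale, or 6.46-fold, and the probe set ranked 9 among 12328 tested probe sets by this difference.

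The probe set of rpa-4 is also of suffix _s_at, so its probes may be shared by several transcripts. For rpa-4 the signal at codes 1 to 4 was 233.2, 151.6, 193.8 and 153.3 in set 1 and 1088.6, 1307.6, 1356.4 and 1197.7 in set 2. In set 3 it was 129.1, 119.3 and 75.1 at codes 1, 3 and 4. The 4 set 2 arrays were close together and the lowest of them was 4.67 times the highest of the others. The log2 difference was 3.10 ± 0.34 (SD over 4 codes), 8.57-fold, the smallest spread over codes among the members.

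The protease gene try-12 ranked 1 among the tested probe sets by the set 2 difference, at the floor of 16.7. Its signal was 15.2, 23.5, 19.2 and 24.3 in set 1 and 221.8, 240.7, 457.9 and 346.7 in set 2. In set 3 it was 23.4, 15.9 and 22.6 at codes 1, 3 and 4. The 7 arrays of sets 1 and 3 lay near the floor and far below their arrays' medians, and the lowest set 2 array was 9.13 times the highest of them. The log2 difference of 3.85 ± 0.59 (SD over 4 codes), 14.4-fold, is set in part by the floor and was 2.68 with the floor at the 20th percentile, below the 3.10 of rpa-4, so the rank depends on the floor. Both marker strain arrays of set 2 were brighter than both HLH strain arrays of that set.

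C02G6.1 was also dim outside set 2, with 46.4, 84.2, 25.6 and 31.4 in set 1 and 13.8, 10.7 and 10.5 at codes 1, 3 and 4 in set 3. In set 2 the signal was 215.8, 326.0, 335.2 and 333.7. The 3 set 3 arrays were under the floor, and the lowest set 2 array was 2.56 times the highest of sets 1 and 3. The log2 difference was 3.20 ± 0.95 (SD over 4 codes), 9.18-fold, both set in part by the floor. It was 2.44 with the floor at the 20th percentile.

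The pair of F56D5.4 probe sets gave differences of unequal size. With the probe set of suffix _at the signal was 386.6, 439.2, 314.5 and 388.1 in set 1, and 861.9, 1032.0, 978.7 and 984.2 in set 2, with 269.2, 212.7 and 164.1 in set 3. With the _s_at probe set, a suffix for probes shared by several transcripts, it was 379.5, 391.1, 438.4 and 249.3 in set 1, and 1995.4, 1830.9, 1779.3 and 1872.0 in set 2, with 285.3, 79 and 76.9 in set 3. The log2 differences were 1.63 ± 0.36 and 2.96 ± 0.68 (SD over 4 codes), or 3.10-fold and 7.78-fold, ranking 67 and 6. Neither probe set had an overlap between set 2 and the other sets.

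T02H6.3 was measured by a probe set of suffix _x_at, whose probes may also match other transcripts. Its signal was 103.7, 192.2, 94.5 and 130.5 in set 1, and 388.5, 493.8, 485.8 and 661.9 in set 2, with 21.2, 16.5 and 26.1 in set 3. Here sets 1 and 3 were themselves far apart. The log2 difference of set 2 was 2.88 ± 1.04 (SD over 4 codes), 7.37-fold, or 2.44 with the floor at the 20th percentile, and at code 2, where set 3 has no array, it was 1.36.

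**Figure D1:**
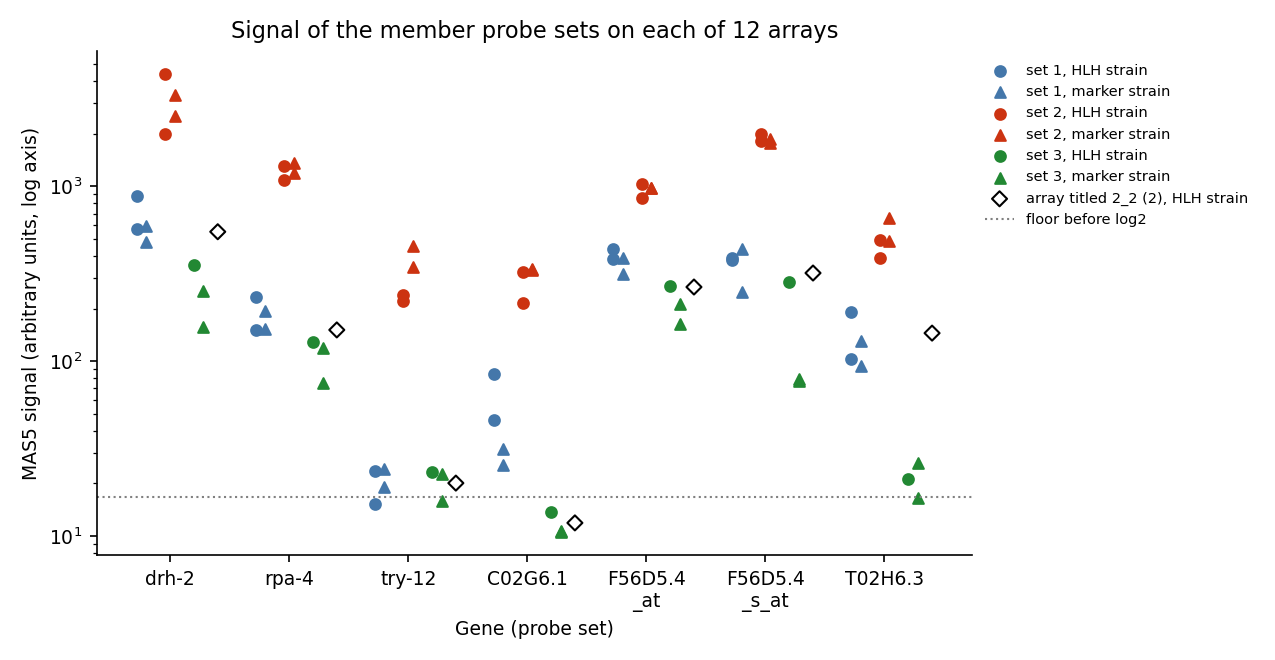
MAS5 signal (log axis) of the 7 member probe sets on 12 arrays, coloured by set, with circles for the HLH strain, triangles for the marker strain, an open diamond for the array titled 2_2 (2) and a dotted line at the floor of 16.7. For every probe set the 4 set 2 arrays lie above all others, and the open diamond lies among the arrays of sets 1 and 3.

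For all 7 member probe sets the 4 set 2 arrays lay above the 7 arrays of sets 1 and 3. The same held for 12.4% of all tested probe sets, 1530 of 12328, and the reverse for 6.89%. The rule used this contrast, and nothing is read from the count. With quantile normalization the counts over all probe sets were 1093 above and 1034 below, so the share above among both fell from 64.3% to 51.4%, while the 7 members stayed above with log2 differences of 1.54 to 3.82. Only 33 of the tested probe sets differed by more than 2 on the log2 scale in favour of set 2 and 3 in the other direction.

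**Figure D2:**
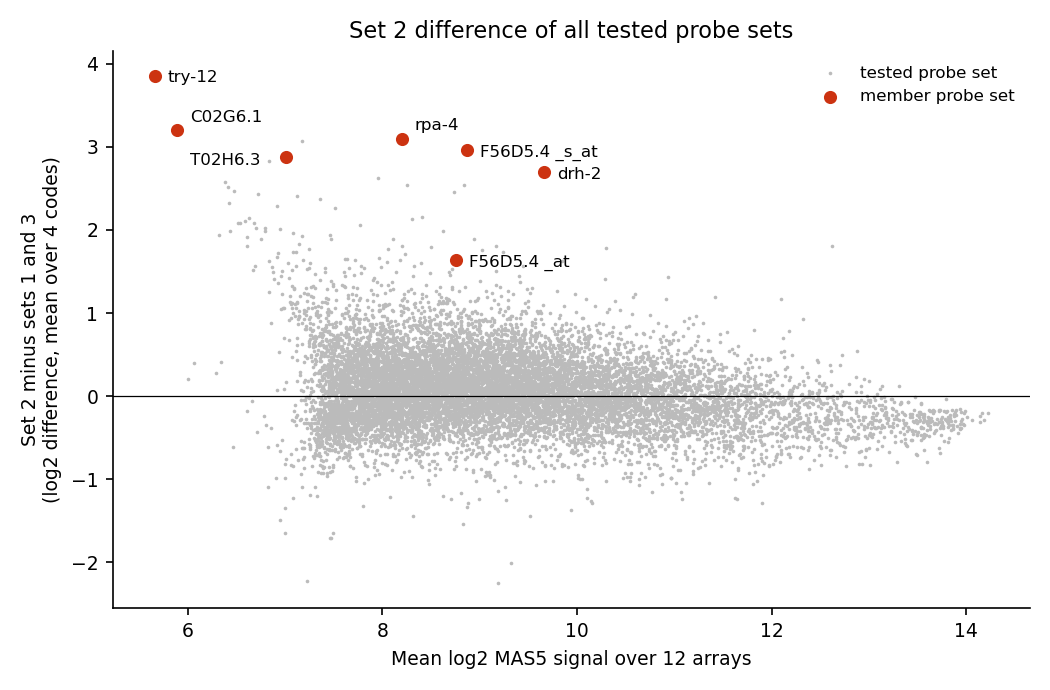
Set 2 minus sets 1 and 3 (log2 difference, mean over 4 codes) against mean log2 signal over 12 arrays for 12328 tested probe sets, members in red. The members lie at 1.63 to 3.85, along the upper edge of the cloud except for the _at probe set of F56D5.4.

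The array titled 2_2 (2) did not share the high signals. It read 550.6 for drh-2, 151.1 for rpa-4, 20.1 for try-12 and 11.9 for C02G6.1. It read 265.9 and 319.7 for the _at and _s_at probe sets of F56D5.4 and 144.9 for T02H6.3. All 7 values lay within the range of the sets 1 and 3 arrays and none within that of set 2. Apart from C02G6.1, the array titled 2_2 was higher by 3.41 times (T02H6.3) to 12 times (try-12). For C02G6.1, under the floor on the array titled 2_2 (2), the difference against the floor was 4.29 on the log2 scale. Among the 1530 probe sets with set 2 above the others, this array fell within the range of sets 1 and 3 for 71.9% and within the range of set 2 for 6.14%.

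Sets 1 and 3 also differed from each other. All members but try-12 were lower in set 3 than in set 1 at each of codes 1, 3 and 4, that is 6 of 7 probe sets against 21.3% of all tested probe sets, while 18% were higher at each of them, and no test was made. The mean log2 difference of set 3 from set 1 was -2.37 ± 0.11 (SD over 3 codes) for T02H6.3, -1.53 ± 1.04 for the _s_at probe set of F56D5.4 and -1.19 ± 0.46 for drh-2. It was -1.0 ± 0.44 for C02G6.1, which sits at the floor in set 3, -0.86 ± 0.16 for rpa-4, -0.78 ± 0.40 for the _at probe set of F56D5.4 and 0.06 ± 0.37 for try-12. The members thus took the order set 2, set 1, set 3, apart from try-12, for which sets 1 and 3 could not be told apart near the floor.

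The 7 arrays of sets 1 and 3 leave out set 2 but were the other side of the contrast that chose the members. Across these 7 arrays 14 of 15 pairs of members correlated positively. Pearson's r ran from -0.39 (rpa-4 with try-12) to 0.93 (drh-2 with T02H6.3), with a median of 0.65. Over 11 arrays r was 0.82 to 0.97, with the 4 set 2 arrays standing apart from the others. These are descriptions of arrays that share sets. The difference between sets 1 and 3, in which most members were lower in set 3, enters r over the 7 arrays, and its part was not tested.

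The study's own comparisons, between codes and between strains, use other contrasts than the one that chose the members. They were first fitted without a set term, so the set difference that chose the members enters the spread behind their SEs. A call of a member is thus unlikely in that fit, and nothing is read from none passing in it. From code 1 to code 2 of the HLH strain, none of the 7 member probe sets passed an adjusted p of 0.05 in limma (two-sided, Benjamini-Hochberg over 12328 probe sets), and none had an unadjusted p under 0.05. The background was 0.0406% called, 5 probe sets, with 284 at an unadjusted p under 0.05. Code 1 gave drh-2 a mean signal of 974 ± 889 and code 2 one of 1948 ± 2142 (SD, n = 3). On the log2 scale code 2 was higher by 0.80 ± 1.11 (SE), with an adjusted p of 1. For T02H6.3 the means were 171 ± 193 and 277 ± 189 (SD, n = 3), and code 2 was at 1.34 ± 1.34 (SE), also with an adjusted p of 1. The other members differed by -0.04 to 0.48, and the 7 had a median of 0.14 against -0.01 over all tested probe sets. Each code holds 1 array of set 2, and the SDs were of the order of the means. Code 2 has no array labelled set 3, so the codes are not balanced over sets. T02H6.3 read 21.2 at code 1 of set 3 and 144.9 on the array titled 2_2 (2).

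From code 3 to code 4 of the marker strain again none of 7 passed or had an unadjusted p under 0.05, where 0.0568% of all tested probe sets, 7, were called and 268 had an unadjusted p under 0.05. The log2 differences ran from -0.40 ± 1.19 (SE) for rpa-4 to 0.52 ± 1.34 (SE) for T02H6.3, with a median of 0.10, and 0.00 over all tested probe sets. Code 3 gave drh-2 a mean of 1051 ± 1278 and code 4 one of 1386 ± 1678 (SD, n = 3), and on the log2 scale code 4 was at 0.46 ± 1.11 (SE).

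Within sets, where the set difference does not enter, drh-2 was higher at the second code of its strain in 5 of 5 pairs. The ratio of code 2 to code 1 was 1.53 in set 1 and 2.21 in set 2, and that of code 4 to code 3 was 1.23, 1.32 and 1.60 in sets 1, 2 and 3. T02H6.3 was also higher in 5 of 5 pairs, by 0.35 to 0.89 on the log2 scale. Among all tested probe sets 6.68% were higher in 5 of 5, and the count for the members was 2 of 7. Code 4 was above code 3 in 3 of 3 sets in 16.4% of all tested probe sets, and for rpa-4 code 4 was below code 3 in 3 of 3 sets and code 2 above code 1 in 1 of 2 sets.

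With the set number as a replicate block, fitted on 11 arrays without the one titled 2_2 (2), the SEs fell but still no member passed in either strain. In the HLH strain drh-2 was at 0.65 ± 0.25 (SE), unadjusted p = 0.024 and adjusted p = 0.62 in limma, the lowest of the members, and 0.0487% of all tested probe sets were called. In the marker strain it was at 0.46 ± 0.22 (SE), adjusted p = 0.69, and rpa-4 at -0.40 ± 0.19 (SE), adjusted p = 0.68, with 0.154% called. The blocked difference of the _s_at probe set of F56D5.4 from code 1 to code 2 was -0.42 ± 0.35 (SE), against 0.03 ± 1.24 (SE) without the block. For T02H6.3 it was 0.54 ± 0.33 (SE), adjusted p = 0.80 in limma, against 1.34 ± 1.34 (SE) without the block. Whether a code difference had another size in the other strain was tested under both matchings of codes. The larger adjusted p was 1.00 for each member with and without the block. With the block and code 2 matched to code 3, drh-2 was at 1.10 ± 0.33 (SE), unadjusted p = 0.0059 and adjusted p = 0.25 in limma. There T02H6.3 was at 1.06 ± 0.44 (SE) and rpa-4 at -0.65 ± 0.28 (SE), with unadjusted p of 0.031 and 0.039 and adjusted p of 0.40 and 0.43.

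Between the strains, over both codes, none of the 7 member probe sets passed, none had an unadjusted p under 0.05, and 2.72% of all tested probe sets, 335, were called. The difference of the HLH strain from the marker strain ran from -0.25 ± 1.14 (SE) for try-12 to 0.75 ± 0.88 (SE) for the _s_at probe set of F56D5.4, with adjusted p of 0.75 to 0.95 in limma. For drh-2 the signals ran from 354.3 over a median of 726.6 to 4414.6 in the HLH strain and from 156.7 over 537.5 to 3313.3 in the marker strain. The strains overlapped widely and the log2 difference was 0.54 ± 0.79 (SE).

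With the replicate block the strain difference was 0.46 ± 0.17 (SE) for drh-2, unadjusted p = 0.017 and adjusted p = 0.088, and 0.52 ± 0.23 (SE) for the _s_at probe set of F56D5.4, unadjusted p = 0.044 and adjusted p = 0.16. No member passed, while 14% of all tested probe sets, 1731, were called. With the array titled 2_2 (2) added as a set 3 array, drh-2 passed with 0.54 and an adjusted p of 0.045, so its call depends on that array's set. Within sets drh-2 was higher in the HLH strain by 0.41 in set 1, 0.04 in set 2 and 0.84 in set 3 on the log2 scale.

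**Figure D3:**
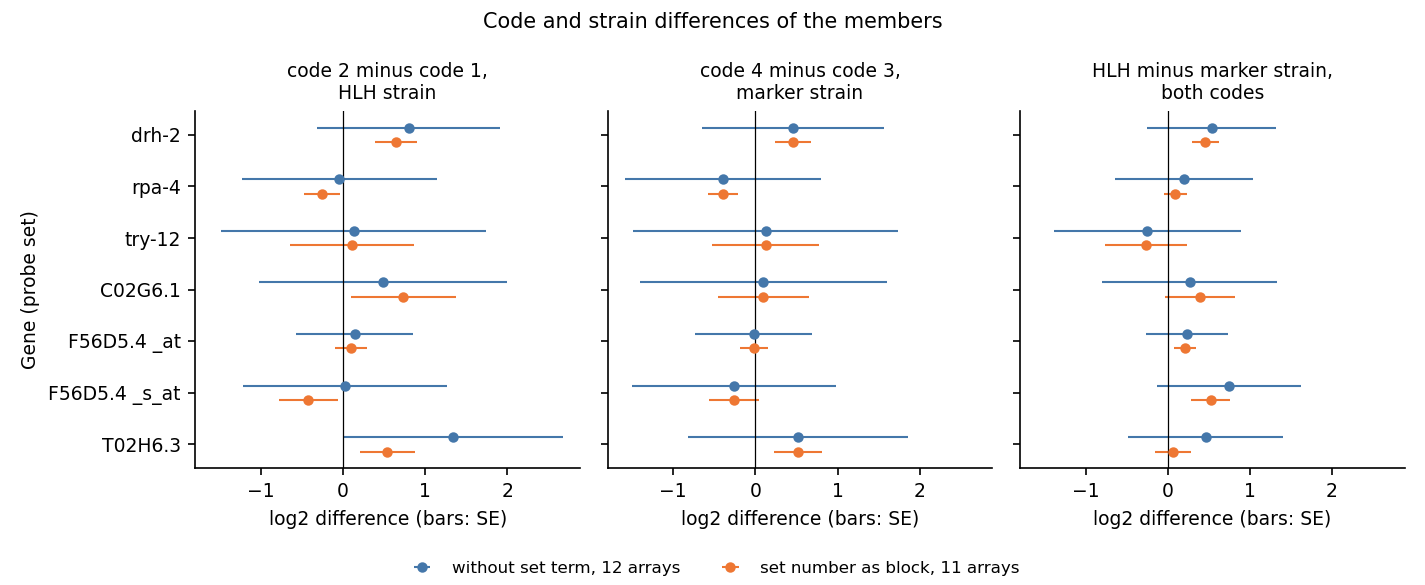
Log2 differences with SE bars of the 7 member probe sets in 3 comparisons, in blue without a set term on 12 arrays and in orange with the set number as a block on 11 arrays. No member passed in either fit, and the bars are shorter with the block.

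The genes most like the members were taken as the 10 with the highest Pearson's r, over 11 arrays, with the mean standardised profile of the 6 members, among 9412 other genes. They were B0205.8, F16B4.5, zip-8, ZK177.2, ddx-46, lir-1, math-3, F59E12.6, nhr-137 and rbm-25, with r of 0.98 to 0.99. The probe sets of zip-8, math-3 and F59E12.6 are of suffix _x_at, and those of F16B4.5, ddx-46, lir-1 and rbm-25 of suffix _s_at. Probes of these suffixes may also match other transcripts. All 10 had set 2 arrays above every array of sets 1 and 3, as did 12.4% of all tested probe sets. The 10 were chosen over arrays that include set 2, by likeness to members high there, so nothing is read from that count. None is an annotated pseudogene, where 1.06% of the tested probe sets of 1 gene represent one. The bZIP gene zip-8 ran from 799.1 to 957.1 in set 2 and from 188.8 to 436.7 in sets 1 and 3, a log2 difference of 1.53 ± 0.33 (SD over 4 codes).

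The splicing-related helicase gene ddx-46 ran from 752.1 to 913.9 in set 2 against 360.9 to 493.7, and math-3, a MATH domain gene, from 995.0 to 2040.1 against 141.8 to 353.9. The set 2 log2 differences of the 10 ran from 0.71 for nhr-137 to 2.55 for math-3, and all were smaller than those of drh-2 and rpa-4. Within the 7 arrays of sets 1 and 3, which were among the 11 used to choose them, their r was 0.86 to 0.96. The list depends on the measure, since 2 of the 10 remained among the first 10 with Spearman's rho. Taken singly, the genes most like each member were ZK177.2 for drh-2, hpo-10 for rpa-4, kel-20 for try-12, B0205.8 for C02G6.1, C01C10.2 for F56D5.4 and mig-38 for T02H6.3, with r of 0.98 to 0.99 over 11 arrays.

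The members were not neighbours of each other. Of those on the same chromosome, try-12 and C02G6.1 have 391 annotated genes between them, and drh-2 and F56D5.4 have 664. Of 24 annotated neighbours, 2 on each side of each member, 19 had a probe set of their own, and 12 of these passed the filter. Of the 19, 3 had set 2 arrays above all of sets 1 and 3, which held for 12.4% of all tested probe sets. The count takes in neighbours below the filter, which that share leaves out, and nothing is read from it. Those 3 are given by their values. F25E5.5, next to try-12, had 289.6 to 527.8 in set 2 and 184.6 to 250.0 in sets 1 and 3. The protease gene try-11, on the other side of try-12 and below the filter, had 58.2 to 77.4 against 29.3 to 56.4. The other was F26F12.4, second from C02G6.1, with 854.6 to 1102.9 against 565.3 to 724.6.

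The paralogue drh-1, directly beside drh-2, did not share the difference. Its signal was 346.8 to 408.4 in set 2 and 332.6 to 382.5 in sets 1 and 3, a log2 difference of 0.10 ± 0.15 (SD over 4 codes).

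Genes of related function were read from lists, by the brightest tested probe set of each gene. Of 42 tested RNA interference and small RNA genes, 31 were higher and 11 lower in set 2, with a median log2 difference of 0.22 against 0.04 over all tested probe sets. In 7 of them the set 2 arrays lay above all of sets 1 and 3 and in 1 below, near the shares of 12.4% and 6.89% over all tested probe sets. The largest differences were 1.26 ± 0.50 for the exonuclease gene xrn-2, whose arrays overlapped, and 0.98 ± 0.44 (SD over 4 codes) for rde-8, at 584.6 to 653.3 in set 2 and 221.4 to 461.3 in sets 1 and 3. None of the 42 passed between codes or strains, and 2.72% of all tested probe sets were called between strains.

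The intracellular pathogen response is a set of genes that worms raise on infection by viruses and microsporidia. The list of 66 genes used here takes in the pals family as a whole, not only genes raised on infection. Of these 46 were on the array, 6 were under the floor on all arrays and 11 were tested. Of the tested genes 8 were higher and 3 lower in set 2, and none separated the sets. The median was 0.21, with pals-23 at 0.86 ± 0.21 and skr-5 at 0.47 ± 0.62 (SD over 4 codes). Between strains skr-4, a Skp1-related gene, was lower in the HLH strain, at -0.83 ± 0.15 (SE), adjusted p = 0.0099 in limma. No other of the 11 passed in any comparison, and 2.72% of all tested probe sets were called between strains.

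Of 29 tested replication genes, 15 were higher and 14 lower in set 2, with a median of 0.04, against 3.10 for rpa-4. The clamp loader gene rfc-1 was at 0.62 ± 0.33 and separated the sets, and rnr-1, a ribonucleotide reductase gene, was at -0.60 ± 0.07 (SD over 4 codes). The helicase subunit gene mcm-7 was lower in the HLH strain, at -0.67 ± 0.13 (SE), adjusted p = 0.014 in limma. It was the only gene of the 29 to pass, where 2.72% of all tested probe sets were called between strains. Of 15 other try genes 11 were on the array and none passed the filter on dim probe sets. The 4 tested genes of a list of insulinase-like proteases were lower in set 2, with a median of -0.25, led by F44E7.4 at -0.60 ± 0.34 and Y70C5C.1 at -0.28 ± 0.25 (SD over 4 codes), and none passed a test.

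Summed signals of neuron, intestine and sperm markers did not overlap between set 2 and sets 1 and 3. Those of the other tissue marker lists overlapped. No test was made, and 45.5% of all tested probe sets were lower in set 2. Of 13 tested neuron genes 10 were lower in set 2, and their summed signal was 22949 to 24199 in set 2 and 29141 to 34317 in sets 1 and 3. Of 10 intestine genes 7 were lower, with sums of 38326 to 44625 against 48637 to 65176. Of 8 tested sperm genes 7 were lower, with sums over all 22 on the array of 2590 to 3018 against 3161 to 4357, and of 16 germline and oocyte genes 12 were lower, with sums of 6748 to 8444 against 7640 to 8573.

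All 9 body wall muscle genes were lower, with overlapping sums of 43041 to 53778 against 48654 to 62434. For pharynx 6 of 7 were lower, for hypodermis 4 of 8, for moulting 9 of 14 and for embryo 3 of 4, and their sums overlapped between the sets. Of the adult markers, 1 of 5 yolk genes on the array (vit-6) and 0 of 2 adult cuticle genes were tested, with sums of 297.2 to 519.8 in set 2 and 481.1 to 727.7 elsewhere for yolk, and 86.4 to 174.5 against 161.4 to 293.2 for adult cuticle. Bright probe sets as a whole were lower in set 2, with a median of -0.11 among the 3082 brightest tested probe sets and 0.07 to 0.14 in the other bins of equal size. Between strains 3 tested marker genes passed in limma, where 2.72% of all tested probe sets were called, and nothing is read from the count. They were 1 of 16 germline and oocyte, 1 of 8 hypodermis and 1 of 14 moulting genes, and no gene of the other marker lists passed. In the HLH strain the oocyte gene cpg-2 was lower (-1.18 ± 0.26, SE, adjusted p = 0.031 in limma). The cuticle collagen gene rol-6 (1.05 ± 0.13, SE, adjusted p = 0.00078) and the moulting gene fbn-1 (0.86 ± 0.16, SE, adjusted p = 0.012) were higher. As background, the pRF4 plasmid of both strains carries a rol-6 allele, so the rol-6 signal may include transcripts of the transgene and does not serve as a hypodermis marker here. The hypodermis count and sums above still include rol-6, which ran from 5561.9 to 15926.7 in set 2 and from 5581.6 to 15232.9 in sets 1 and 3. The part of these shifts in the members' difference was not tested, and in whole-worm RNA fewer cells of a type and less RNA per cell cannot be told apart.

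**Figure D4:**
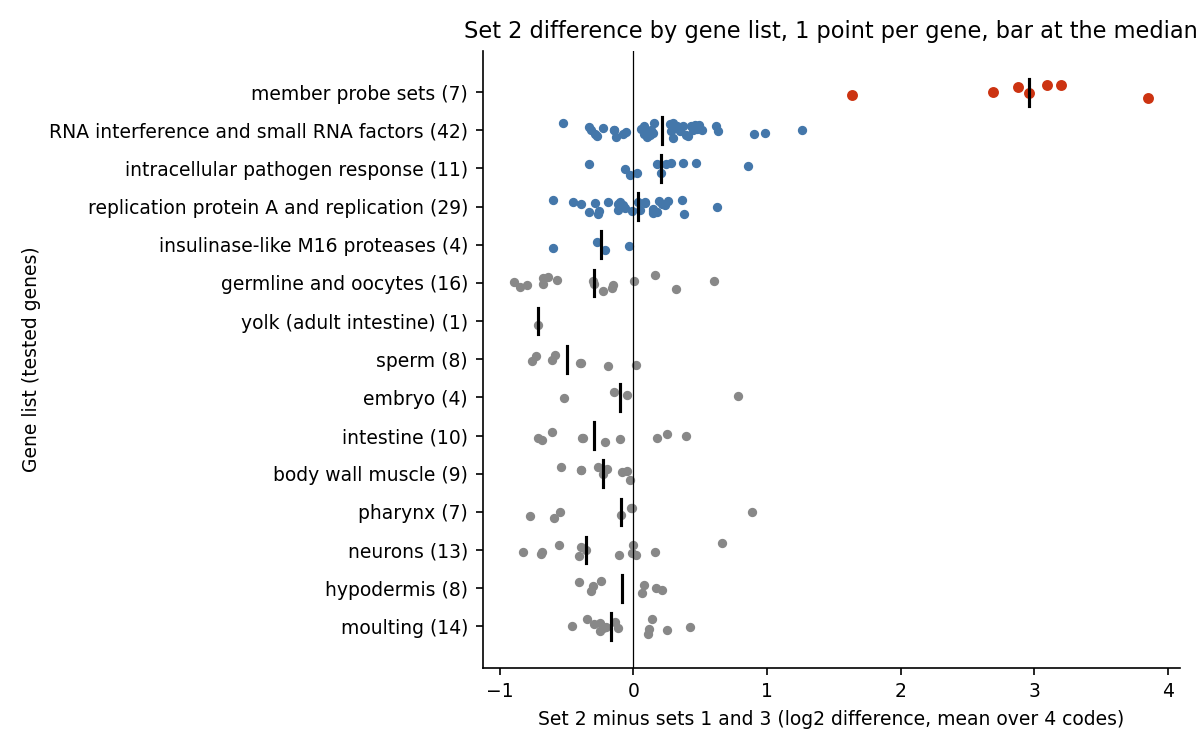
Set 2 minus sets 1 and 3 (log2 difference, mean over 4 codes) for the 7 member probe sets in red, the genes of function lists in blue and of tissue marker lists in grey, with a bar at each median and the number of tested genes in parentheses. The list medians lie between -0.72 and 0.22, and every member lies at 1.63 or above.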

How the data were processed

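The files the authors deposited give array intensity, linear MAS5 signals, for each probe set, and the submitters' processing notes name MAS5 with no version or settings. All 12 arrays had a 2% trimmed mean of 500.1, and this scaling was left as it is. Values under the 10th percentile, 16.7, were set to it before log2 conversion. The 77 control probe sets and those above their array's median on fewer than 3 of 12 arrays were left out, and 12328 were tested. The 4 groups entered 1 linear model in limma 3.58.1 under R 4.3.3, with lmFit, then eBayes with a trend on intensity (8 residual degrees of freedom). The set difference is set 2 minus the mean of the other sets within each code, averaged over 4 codes. At code 2, where set 3 has no array, the other side is set 1 alone, which also enters the SD over codes. The labels do not say whether arrays came from separate cultures, although the design text calls the replicates biological, so p-values measure the spread between these arrays. The number of arrays limits the precision.

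Set numbers pair the arrays: deviations from group means correlated in all 15 same-set pairs, r of 0.31 to 0.79. Gene names are those of the platform annotation, and 20701 of 20766 probe sets of 1 gene were matched to the gene table of WBcel235, used for names, biotypes and the order of genes on chromosomes; none of its coordinates is printed because no source used here names the build of the probes. Named genes are the members, the 10 genes most like them and the 1 most like each, their neighbours, and of each function list the 2 largest set 2 differences and any called gene. Called genes of the tissue marker lists were named after their values were seen. The members and lists were chosen with earlier results of these data known. The alternatives tried were the set number as a replicate block, other placements of the array titled 2_2 (2), quantile normalization, no filter, other floors, no trend, fewer arrays in the fit and each array left out.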

Additional observations from a re-analysis of the deposited data

Results flagged for a closer look

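Signals of the 7 member probe sets were searched for arrays far from the rest in set 1, in set 2 and in each strain, 28 groups of 4 or 6 arrays in all, of which chance would flag about 1 in 20. One stood out. In set 2, C02G6.1 had 215.8 at code 1 of the HLH strain, against 326.0 to 335.2 on the other arrays of that set, and the value is still above every array of sets 1 and 3.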

How the results depend on the processing

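Across 21 member comparisons between codes or strains and 455 alternative values, no member passed except drh-2 between strains with the replicate block and the array titled 2_2 (2) in set 3, the 1 member called there. No difference was past the threshold in the first place, so the 55 changes of sign are changes within error. With the replicate block, the _s_at probe set of F56D5.4 was at -0.42 from code 1 to code 2. The probe sets called were then 19 in the marker strain and 1731 between strains, and with that array in set 3 they were 20 in the HLH strain, 17 in the marker strain and 1663 between strains. With that array averaged with its namesake, try-12 and the _s_at probe set of F56D5.4 were both at -0.13 from code 1 to code 2. With the floor at the 20th percentile, try-12 was at -0.13 and C02G6.1 at -0.0022 from code 3 to code 4. Without the 4 set 2 arrays, try-12 was at 0.017 between strains and 195 probe sets were called. In the marker strain 4 were called with no filter and 4 when the fit held its own 2 groups alone, which gives no value between strains.

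Leaving out each array in turn, differences from code 1 to code 2 ran from -0.090 to 1.51 for drh-2, -1.08 to 0.84 for rpa-4, -1.03 to 1.29 for try-12 and -0.56 to 1.59 for C02G6.1. They ran from -0.39 to 0.61 and -0.76 to 0.89 for the _at and _s_at probe sets of F56D5.4. From code 3 to code 4 they ran from -0.58 to 1.52 for drh-2, -1.56 to 0.66 for rpa-4, -1.17 to 1.68 for try-12, -1.19 to 1.44 for C02G6.1, -0.68 to 0.62 and -1.51 to 0.83 for the F56D5.4 probe sets, and -0.71 to 1.72 for T02H6.3. Between strains they ran from -0.32 to 0.78 for rpa-4, -0.83 to 0.53 for try-12, -0.25 to 0.94 for C02G6.1, -0.086 to 0.56 for the _at probe set of F56D5.4 and -0.15 to 1.06 for T02H6.3.

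The probe sets called ran from 4 to 8 in the marker strain, with 4 without the set 1 or set 3 array of code 4 or the set 3 array of code 3. Between strains they ran from 180 to 315. The count there was 186 and 189 without the set 1 and set 2 arrays of code 1, 180 without the set 1 array of code 2 and between these values without its set 2 array, and 220 and 219 without the set 1 and set 3 arrays of code 4. The cause was not tested.

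Of 112 alternative values of the set 2 differences 110 moved by less than the spread over codes and none changed sign. The exceptions were rpa-4 at 2.71 with the array titled 2_2 (2) counted in set 2 and try-12 at 2.68 with the floor at the 20th percentile. With 12 arrays 8 of the 10 genes most like the members were shared. The dim members, try-12 and C02G6.1, are limited by signal near the floor outside set 2.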
